A study of Mus musculus with 6 samples.

Results

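The 26S proteasome, the protease that degrades ubiquitin-tagged proteins, was followed at the level of its messenger RNAs in mouse kidneys at embryonic day 16. Its genes were taken as every row of the deposited expression table whose symbol is Psma, Psmb, Psmc, Psmd, Psme, Psmf or Psmg followed by digits. This gave 46 rows of 13965 in all. One set of kidneys was labelled mutant and carried Six2-TGC together with miR-17~92 flx/flx, and the others were labelled control, WT with miR-17~92 flx/+. Six2-TGC is a transgene that drives Cre recombinase from Six2 regulatory sequence in nephron progenitors, so that the floxed microRNA cluster is deleted in those cells and their descendants. The control label names no transgene, so an effect of the transgene and an effect of the deletion cannot be told apart. All kidneys carried at least 1 floxed allele. Each of 3 litters gave 1 mutant and 1 control library, 6 in all, with 46672915 to 54913325 reads in mutant and 43804667 to 49473404 reads in control libraries. One row joins 7 identifiers, those of the microRNAs of the cluster (Mir17 to Mir92-1) and of their host gene Mir17hg. It stood at 53.6, 39.8 and 44.6 CPM in libraries 1, 2 and 3 labelled mutant and at 34.1, 36.4 and 23.0 CPM in those labelled control, higher in 3 of 3 litters, with a log2 difference of 0.57 and an adjusted p of 0.222 by limma with genotype alone (0.0292 with litter as a block). A loss of the whole row would lower it, and its direction was the opposite. The row also counts host gene reads outside the floxed stretch and from cells without Cre, and so checks neither the labels nor the deletion. Mutant and control below stand for the libraries labelled so, and every direction rests on those labels. The labels name the litter and nothing else that separates the replicates. In such bulk RNA, fewer cells of a type and less RNA per cell cannot be told apart. Whether a library came from 1 embryo or from pooled kidneys is not given in the sources used here.

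The barrel of the proteasome, the 20S core, has outer rings of alpha subunits that gate the entrance and inner rings of beta subunits, some of which carry the protease sites. The 19S cap sits on the core, with a base that holds ATPases, which unfold and thread substrates, and a lid of non-ATPase subunits. Among the non-ATPase subunits of the cap are those that receive ubiquitin chains and remove them. Dedicated chaperones build the core and the base, alternative activators and an inhibitor bind the ends of the core, and interferon-induced beta subunits replace the standard catalytic ones in immune cells. Subunit genes are known to be transcribed in a coordinated way, in mammals in part through the factor NRF1, encoded by Nfe2l1.

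Most proteasome subunit messages were slightly lower in mutant kidneys, but no row passed the test of genotype alone. Of the 45 rows tested, 42 had a negative log2 difference, which was below 0 for 46.9% of all 13766 rows tested. The median over the proteasome rows was -0.13 on the log2 scale, against 0.01 over all rows. Differences were small, with 3 rows below -0.2, 24 from -0.2 to -0.1, 15 from -0.1 to 0, and 3 above 0. By limma with genotype alone, 0 proteasome rows were called higher and 0 lower at an adjusted p below 0.05, where 0.363% of all rows were called higher and 0.196% lower. The lowest adjusted p among them was 0.286. At an unadjusted p below 0.05, 6 proteasome rows of 45 passed by limma, or 13.3%, against 11.3% of all rows.

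With litter as a block in the limma model, which compares each mutant kidney with the control of its own litter, 9 proteasome rows fell and 0 rose. Among all rows, 3.51% were called lower and 7.93% higher in this fit. The genes that fell were Psma1, Psma2, Psma7, Psmb5, Psmb6, Psmb7, Psmc3, Psmd14 and Psmg2. When length and GC content were corrected for as well, 2 rows passed, and only 1 of them, Psma2, was among these 9. The count was 0 without litter 1, 6 without litter 2 and 11 without litter 3. It was 12 with trimmed-mean scaling and 15 with median-ratio scaling of the libraries, each with the block and each holding the same 9 genes. In 36 of 45 rows the mutant was below the control in every litter, against 22.2% of all rows. In 15 rows every mutant library lay below every control library, against 7.12% of all rows, and in 1 row, Psmf1, every mutant library lay above every control library, against 10.2%. Psmf1 was also the 1 row higher in every litter, against 28.3% of all rows.

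**Figure D1:**
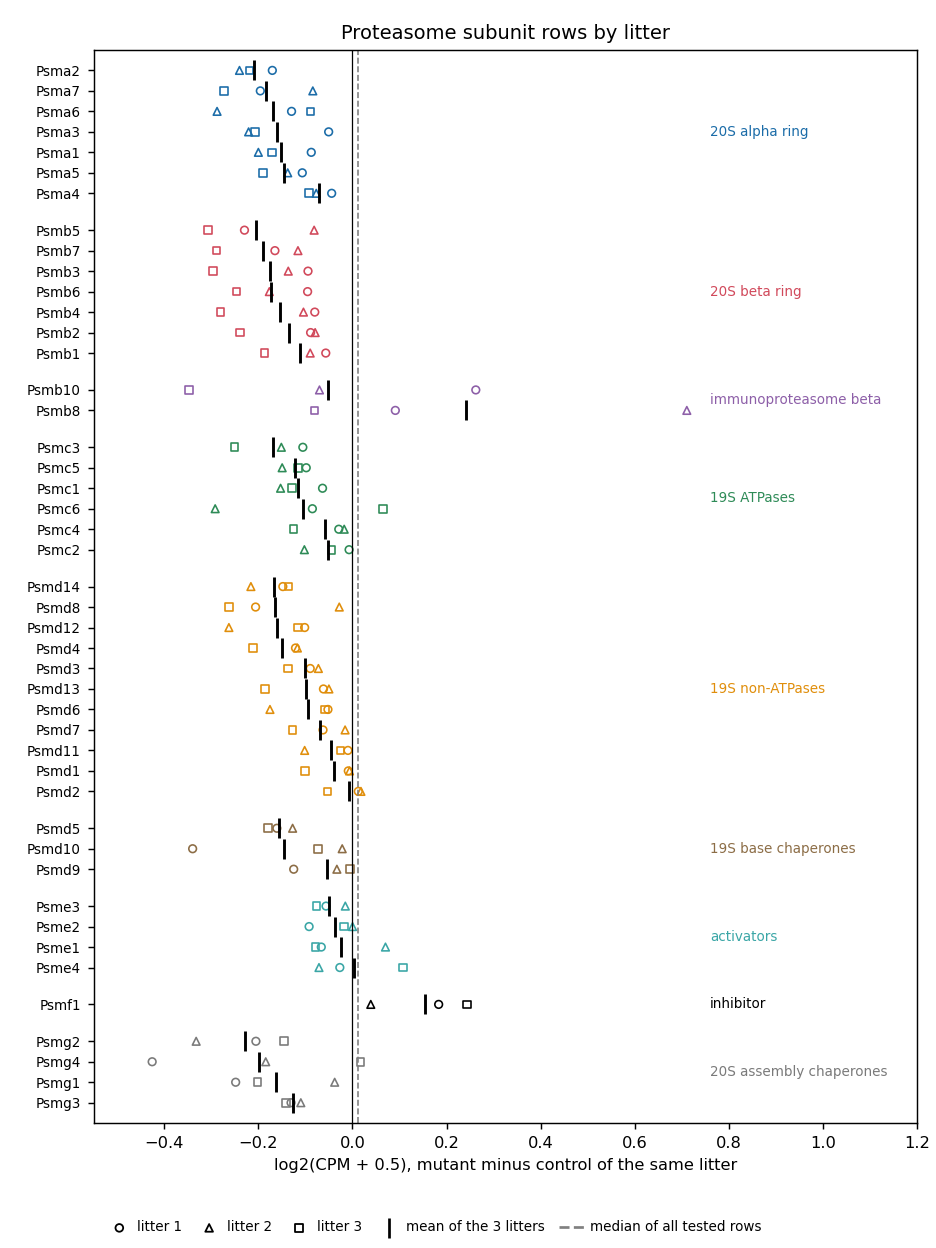
Each row is 1 proteasome gene, grouped by role, and the x axis is the difference in log2(CPM + 0.5), mutant minus control of the same litter. Open circles, triangles and squares are litters 1, 2 and 3, black bars are their means, and the dashed line is the median of all tested rows. Most symbols of the 20S and 19S subunits lie left of 0, those of Psmf1 lie right of 0, and those of the activators lie around 0.

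In the alpha ring of the core, 3 of 7 tested rows fell with the block, against 3.51% of all rows. With the block and the correction 1 fell, against 2.76%, and with genotype alone 0, against 0.196%. The 7 rows all had a negative difference, from -0.21 to -0.07 with a median of -0.16, and each was lower in every litter. Summed over these rows, mutant libraries of litters 1, 2 and 3 held 2003, 1898 and 1856 CPM (reads of the row, scaled to the same total in each library), against 2158, 2139 and 2108 CPM in control libraries. The groups did not overlap, and the mutant mean was 89.9% of the control mean.

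Psma2, which encodes the alpha2 subunit, had 206, 203 and 195 CPM in mutant kidneys of litters 1, 2 and 3, against 232, 240.0 and 227 CPM in control kidneys. All mutant values were below all control values. The log2 difference was -0.21 (SE 0.07), with an adjusted p of 0.286 by limma with genotype alone and of 0.0160 with the block. Psma7, the alpha4 subunit, stood at 316, 355 and 328 CPM in mutant and 362, 376 and 396 CPM in control kidneys, again without overlap. It fell by 0.18 on the log2 scale, with an adjusted p of 0.0366 by limma with the block. Psma1, the alpha6 subunit, stood at 344, 317 and 316 CPM in mutant and 366, 364 and 355 CPM in control kidneys, and fell by 0.15, with an adjusted p of 0.0443 in the same fit.

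Psma3, Psma5 and Psma6 had log2 differences of -0.16, -0.14 and -0.17 and missed the threshold, with adjusted p of 0.0562, 0.0524 and 0.0598 by limma with the block. Psma4 was closest to 0, at -0.07, and at 0.01 after the length and GC correction. Psma8, an alpha subunit that replaces Psma7 in the germ cells of the testis, was near its limit of detection. It had 77, 38 and 40 reads in mutant and 61, 32 and 31 reads in control libraries, and was the 1 member that did not reach 1 CPM in 3 libraries and was not tested. Of the 3 germ cell markers listed, only 1 had a row, at no more than 1.26 CPM in mutant and 1.39 CPM in control libraries.

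In the beta ring, all 7 rows were lower in every litter, including the 3 genes for the proteolytic subunits. Their log2 differences ran from -0.21 to -0.11, with a median of -0.17. The summed level was 1173, 1238 and 1119 CPM in mutant libraries, against 1268, 1340.2 and 1341 CPM in control libraries, without overlap, and the mutant mean was 89.4% of the control mean.

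Psmb5, which carries the chymotrypsin-like site, had 110.5, 131 and 110.2 CPM in mutant kidneys and 129.6, 139 and 136 CPM in control kidneys. The mutant of litter 2 was above the control of litter 1, so the groups overlapped. The row joins Psmb5 with the microRNA gene Mir686. It fell by 0.21 on the log2 scale, with an adjusted p of 0.0429 by limma with the block (0.437 with genotype alone).

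Psmb7, which carries the trypsin-like site, had 224, 221 and 205 CPM in mutant and 251, 239 and 251 CPM in control kidneys, and fell by 0.19 (adjusted p = 0.0349 by limma with the block). Psmb6, which carries the caspase-like site, had 183, 192 and 174 CPM in mutant and 196, 218 and 207 CPM in control kidneys, and fell by 0.17 (adjusted p = 0.0428 in the same fit). Neither gene's groups overlapped. Psmb5, Psmb6 and Psmb7 have annotated pseudogenes, so the assignment of their reads is uncertain. The structural subunit genes Psmb1, Psmb2, Psmb3 and Psmb4 had differences of -0.11, -0.14, -0.18 and -0.15 and did not pass.

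**Figure D2:**
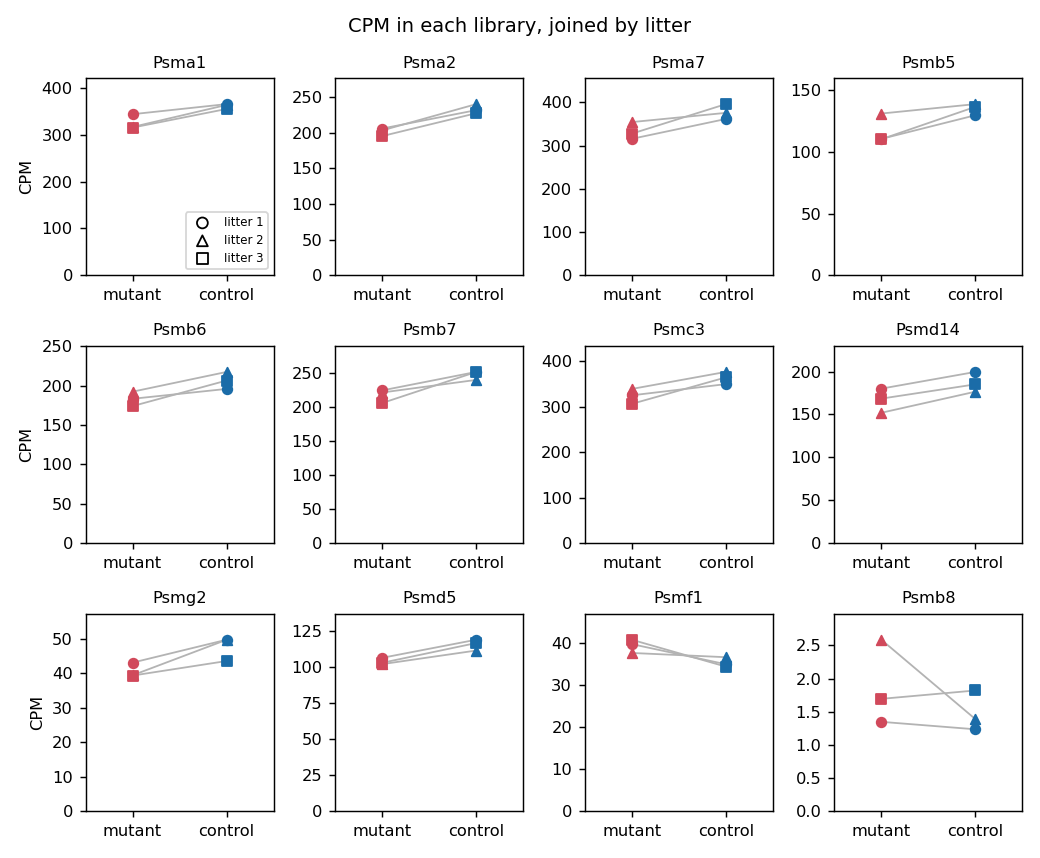
CPM of 12 proteasome genes in each library, on axes that start at 0, with mutant kidneys on the left and control kidneys on the right. Grey lines join the libraries of a litter (circle 1, triangle 2, square 3). The 9 genes called with the block and Psmd5 slope upward to the control in every litter, Psmf1 slopes downward, and the lines of Psmb8 cross.

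The beta subunits of the immunoproteasome had few reads in both groups and did not pass in either fit. Psmb8, which replaces Psmb5, had 1.35, 2.59 and 1.69 CPM in mutant and 1.23, 1.39 and 1.82 CPM in control kidneys. These values rest on 65, 142 and 79 reads in mutant and 54, 61 and 90 reads in control libraries, and the groups overlapped. By limma the log2 difference was 0.24 (SE 0.22), with adjusted p = 0.737 for genotype alone and 0.425 with the block. Psmb10, which replaces Psmb7, had 11.2, 11.8 and 9.83 CPM in mutant and 9.29, 12.5 and 12.7 CPM in control kidneys, with a difference of -0.05 (adjusted p = 0.934 by limma).

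Per base of transcript, Psmb8 made up 0.668%, 1.08% and 0.841% of the sum of Psmb8 and Psmb5 in mutant libraries, and 0.522%, 0.549% and 0.731% in control libraries. Psmb10 made up 4.25%, 4.53% and 4.06% of the sum of Psmb10 and Psmb7 in mutant libraries, and 3.17%, 4.40% and 4.27% in control libraries. Psmb9, the interferon-induced partner of Psmb6, and Psmb11, the beta subunit of thymic cortical epithelium, had no row and were not analysed here.

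Genes that act with the immunoproteasome in presenting peptides on MHC class I had small positive differences. All 10 rows found for this list were above 0, with a median of 0.13. None was called with genotype alone, and 2 rose with the block, against 7.93% of all rows. These were H2-K1, a class I heavy chain, at 19.7 ± 2.94 CPM (SD, n = 3) in mutant and 15.4 ± 0.927 CPM in control kidneys (limma adjusted p = 0.0332 with the block), and Erap1, a peptidase that trims the peptides, at 45.5 ± 5.53 CPM in mutant and 36.4 ± 3.96 CPM in control kidneys (0.0134). With the length and GC correction as well, the adjusted p was 0.0279 for H2-K1 and 0.0501 for Erap1, and B2m, the light chain of class I, passed at 0.0245, where 3.07% of all rows were called higher. Beside these, 9 of 10 macrophage and leukocyte markers had a positive difference, 0 were called in either fit, and none was at 0. Their summed level was 107.6 to 136 CPM in mutant libraries and 96.4 to 105 CPM in control libraries. Their part in the result was not tested.

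In the 19S base, all 6 ATPase genes had a negative difference, from -0.17 to -0.05 with a median of -0.11. Summed, they stood at 1323, 1305 and 1218 CPM in mutant and 1389, 1444 and 1321 CPM in control libraries, and the groups overlapped. Psmc3, the ATPase Rpt5, had 325, 339 and 306 CPM in mutant and 349.5, 376 and 364 CPM in control kidneys, with no overlap. It fell by 0.17 on the log2 scale (adjusted p = 0.0386 by limma with the block, 0.412 with genotype alone). Of all members, its profile over the 6 libraries was the one most like the mean of the other members, with a Pearson correlation of 0.98. Psmc6, by contrast, was lower in litters 1 and 2, at -0.09 and -0.29, and higher in litter 3, at 0.06.

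Among the non-ATPase subunits of the 19S cap, all 11 differences were negative, from -0.17 to -0.01 with a median of -0.10, and 10 rows were lower in every litter. Psmd14, the metalloprotease that removes ubiquitin chains from substrates, had 180.1, 152 and 168 CPM in mutant kidneys of litters 1, 2 and 3 and 199.6, 177 and 185 CPM in control kidneys. The groups overlapped across litters, while each mutant was below its littermate. It fell by 0.17 (adjusted p = 0.0388 by limma with the block); its row joins Psmd14 with an identifier that has no symbol. The ubiquitin receptor gene Psmd4 had a difference of -0.15 (adjusted p = 0.0530 in the same fit).

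Psmd2, the gene of the scaffold subunit Rpn1, had the smallest difference of these, with 513, 521 and 480.0 CPM in mutant and 509, 515 and 498 CPM in control kidneys. The difference was -0.01 (SE 0.07). Psmd1, the companion scaffold Rpn2, shares its row with the gene Armc9, so its difference of -0.04 cannot be assigned to either gene.

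Of the 3 chaperones that assemble the base, Psmd5 had 107, 102 and 103 CPM in mutant and 119, 112 and 117 CPM in control kidneys, with no overlap. Its difference of -0.16 had an adjusted p of 0.0561 by limma with the block. Psmd10, also known as gankyrin, had a difference of -0.15 and Psmd9 of -0.05.

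Of the 4 chaperones of the 20S core, 1 fell with the block, Psmg2, against 3.51% of all rows. With the block and the correction 0 fell, against 2.76%. Summed, Psmg1 to Psmg4 stood at 112, 118 and 114 CPM in mutant and 132, 133 and 127 CPM in control libraries, without overlap, and the mutant mean was 87.8% of the control mean. Psmg2 had the lowest difference of all members, -0.23 (SE 0.10). It had 43.1, 39.4 and 39.4 CPM in mutant and 49.8, 49.8 and 43.6 CPM in control kidneys, with no overlap, and an adjusted p of 0.0479 by limma with the block (0.413 with genotype alone). Psmg4 had 9.07, 13.5 and 13.7 CPM in mutant and 12.4, 15.4 and 13.5 CPM in control kidneys, and its difference of -0.20 (SE 0.17) did not pass. Litter 1 differed by -0.43 and litter 3 by 0.02.

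The activators and the inhibitor had differences near or above 0, and whether these differ from those of the core was not tested. The activator genes Psme1, Psme2, Psme3 and Psme4 had differences of -0.02, -0.04, -0.05 and 0.00, and summed to 754, 726 and 744 CPM in mutant and 782, 735 and 742 CPM in control libraries, which overlap. Psme1, a subunit of the PA28 activator, had 102, 116 and 101 CPM in mutant and 107, 110.3 and 106 CPM in control kidneys, and the groups overlapped. Psme4, the gene of PA200, had 312, 254 and 289.5 CPM in mutant and 318, 267 and 269 CPM in control kidneys. Psme2 has an annotated near copy, Psme2b, so its reads may be split between them. Psmf1, the gene of the proteasome inhibitor PI31, had 39.7, 37.6 and 40.8 CPM in mutant and 35.0, 36.6 and 34.4 CPM in control kidneys, with every mutant value above every control value. By limma its log2 difference was 0.16 (SE 0.09), which did not pass with genotype alone (adjusted p = 0.578) or with the block (0.154). Across the 6 libraries its profile ran opposite to the mean of the other members, with a Pearson correlation of -0.88, while 9 of the 45 rows were correlated with that mean above 0.9. These correlations share the libraries and their scaling.

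**Figure D3:**
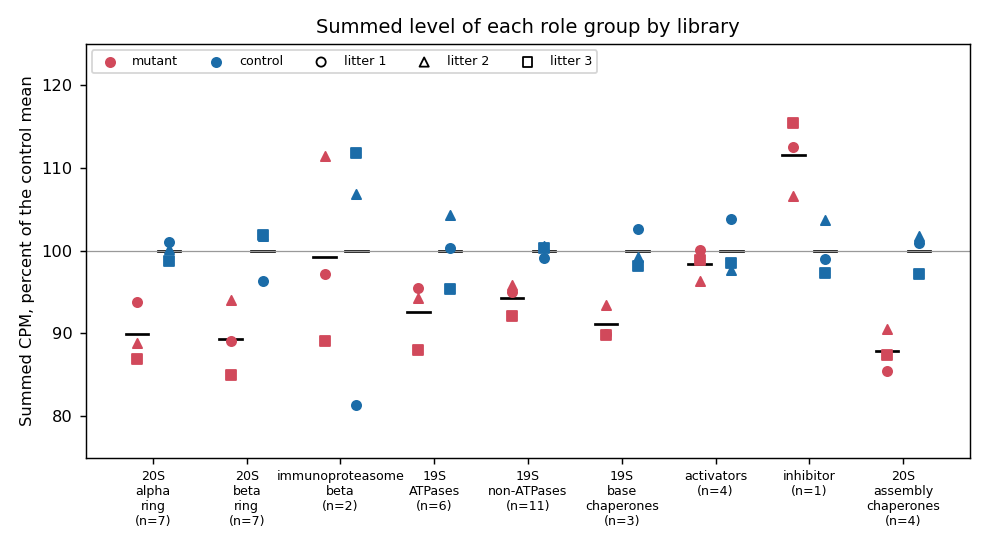
Summed CPM of each role group in each library, as a percentage of the control mean of that group, with mutant libraries left of control libraries. Symbols give the litter, and black bars the group means. The y axis starts at 75%. Both rings, the non-ATPase subunits and both chaperone groups have mutant libraries wholly below control libraries, while ATPases, activators and immunoproteasome subunits overlap and the inhibitor is above.

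By level, the members differed far more among themselves than between genotypes. Per 1000 bases of principal transcript, the constitutive 20S subunits ran from 69.2 ± 1.89 CPM for Psma2 to 364 ± 21.7 CPM for Psma7 in mutant kidneys (SD, n = 3), and from 80.0 ± 2.23 to 414 ± 18.9 CPM for the same genes in control kidneys. This order depends on the transcript chosen, of 2911 bases for Psma2 and 914 bases for Psma7. Before division by length, Psma2 averaged 201 CPM in mutant and 233 CPM in control kidneys. The lowest of these subunits was then Psmb2, at 116 CPM in mutant and 127 CPM in control kidneys. After Psma7 came Psma1 (271 ± 13.4 and 301 ± 4.61 CPM per 1000 bases in mutant and control kidneys), Psma4 (242 ± 16.1 in mutant and 254 ± 12.7 in control kidneys) and Psmb6 (230 ± 11.5 in mutant and 259 ± 13.5 in control kidneys). The values of Psma4 and Psmb6 lay within their spread of each other, and Psmb6 was the higher in control kidneys. The core chaperones averaged up to 47.7 CPM per 1000 bases in mutant and 53.4 in control kidneys, both for Psmg1.

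Promoters of the family were searched for motifs of factors known to act on its genes. In RefSeq promoter windows of build GRCm38.p6, from 250 bases before to 50 bases after the annotated start, 38 of the 46 members had a window. The core of the antioxidant response element, TGACNNNGC on either strand, to which NRF1 and its relatives bind, was found in 6 of the 38, or 15.8%, against 16.9% of the 10846 genes of the table that have a window and 13.99% of all 27025 genes. An ETS site, CCGGAAGT on either strand, was found in 9 of the 38, or 23.7%, against 8.45% of the table's genes and 4.31% of all genes. A CCAAT box, CCAAT on either strand, was found in 12, or 31.6%, against 42.9% of the table's genes and 41.1% of all genes. Of the 9 genes that fell with the block, 6 had a window; 2 of these, Psmb5 and Psmb6, held the antioxidant response element core, 4 a CCAAT box and 0 the ETS site. These matches describe letters and not binding. They are shown for the 2 catalytic subunits that fell, followed by 4 of the 9 members with the ETS site. None of these 4 passed with the block. Each runs 5′ to 3′ along the gene's strand, with the matched motif in capitals and its first base counted from the start.
Psmb5, chr14:54618024-54618052, minus strand, motif start at -47: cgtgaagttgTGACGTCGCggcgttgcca
Psmb6, chr11:70525338-70525366, plus strand, motif start at -9: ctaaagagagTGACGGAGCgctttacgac
Psme4, chr11:30771712-30771739, plus strand, motif start at -53: tggccccgccCCGGAAGTgacttgaggc
Psmd13, chr7:140882378-140882405, plus strand, motif start at -6: gcccgcggtgCCGGAAGTgagcgagcac
Psmd6, chr14:14120973-14121000, minus strand, motif start at -45: agagacgcgaCCGGAAGTcagactggcg
Psmc1, chr12:100110163-100110190, plus strand, motif start at -29: tggtggatgcACTTCCGGcggtggcgat
The Psmb5, Psmb6, Psme4, Psmd13 and Psmd6 matches read along the gene's strand and the Psmc1 match on the opposite strand. No motif printed here overlaps another.

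The difference between kidneys went with transcript length, and proteasome messages are short. Their principal transcripts had a median of 1440 bases, against 3069 bases over all tested rows. Rows are not independent replicates, but over the 13517 tested rows with a length, the log2 difference and length had a Spearman rank correlation of 0.43. Across the 45 proteasome rows it was 0.48. Among the longer members, Psme4 (6491 bases) and Psmf1 (3809 bases) had differences of 0.00 and 0.16, while Psmd5 (4397 bases) was at -0.16. Of the proteasome rows, 17 had lengths of 74 to 1281 bases, the shortest of 10 equal bins, where the median difference was -0.16 for proteasome rows and -0.11 for all rows. In the next bin, from 1282 to 1764 bases, the 13 proteasome rows had a median of -0.12 and all rows of -0.07.

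Libraries differed in this length relation. The Spearman rank correlation between length and a library's deviation from the mean library was 0.22, -0.01 and 0.47 in mutant libraries 1, 2 and 3, and -0.10, -0.43 and -0.12 in control libraries 1, 2 and 3. The mean deviation of the proteasome rows was -0.05, -0.01 and -0.09 in the mutant libraries and 0.04, 0.08 and 0.04 in the control libraries. Mutant library 3 had the highest correlation with length and the lowest proteasome level, and control library 2 the lowest correlation with length and the highest proteasome level. With GC content, the same correlation was -0.63, 0.60 and 0.01 in mutant libraries 1, 2 and 3, and -0.54, 0.44 and 0.26 in control libraries 1, 2 and 3. Both libraries of litter 1 were negative and both of litter 2 positive. What part the length and GC relations had in the proteasome difference was not tested beyond the correction that follows.

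**Figure D4:**
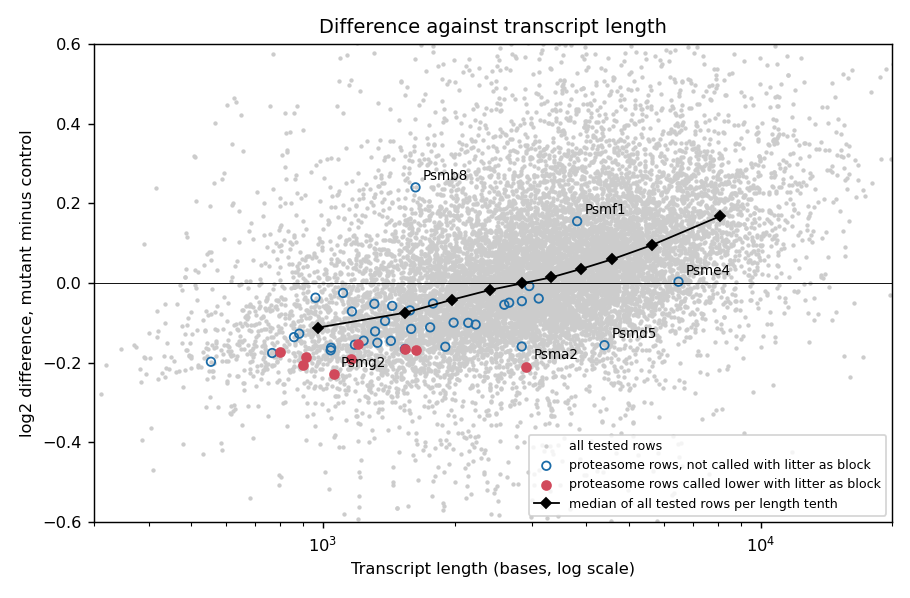
Log2 difference, mutant minus control, against transcript length on a log axis, for all tested rows (grey; rows beyond 0.6 in either direction are outside the axis) and the 45 proteasome rows. Red points are the 9 rows called lower with litter as a block, open blue circles the other members, and black diamonds the median of all rows in each of 10 bins by length. Most proteasome points lie below the black line, and some lie above it, among them Psmf1, Psmb8, Psme1, Psme2 and Psma4.

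With length and GC content fitted and subtracted in every library, the proteasome rows were still lower, by less. The median became -0.08, against -0.02 over all rows, and 39 of 45 rows were below 0, against 55.3% of all rows. With this correction and the block, 2 rows fell, against 2.76% of all rows, and 0 rose, against 3.07%. These were Psma2, with a log2 difference of -0.20 and an adjusted p of 0.0301 by limma, and Psmd5, with -0.22 and 0.0261. Both were assigned long principal transcripts, 2911 bases for Psma2 and 4397 bases for Psmd5, against a proteasome median of 1440 bases. The corrected values depend on these lengths, and shorter transcripts of the 2 genes were not tried. The other 8 genes called with the block alone had differences from -0.15 for Psmg2 to -0.07 for Psma1 and did not pass, with adjusted p from 0.0729 for Psmc3 to 0.294 for Psma1. With genotype alone and the correction, 0 proteasome rows were called by limma in either direction, against 0.632% of all rows higher and 0.523% lower. The difference of Psme4 became -0.12 and that of Psmf1 0.09. Length taken from the longest annotated transcript gave 3 calls with the block, Psma2, Psmd5 and Psmb7.

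Other complexes built of many subunits had medians of the same sign. Of 72 cytosolic ribosomal protein rows, 64 fell with the block and 19 with the block and the correction, where 3.51% and 2.76% of all rows were called lower. Their median was -0.20 before and -0.13 after the correction. The median of 74 mitochondrial ribosomal protein rows was -0.14 before and -0.10 after the correction. Of these, 3 rows fell with the block, a share near that of all rows, and 5 with the block and the correction. All 8 rows of the CCT chaperonin, which folds actin and tubulin, were lower in every litter, with a median of -0.12 before and after, and 3 fell with the block and 2 with the correction as well. The COP9 signalosome, a complex related to the 19S lid, had a median of -0.09 over 9 rows, with 0 called in either fit. Its median was -0.06 after the correction. No difference between the proteasome and these complexes was tested.

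**Figure D5:**
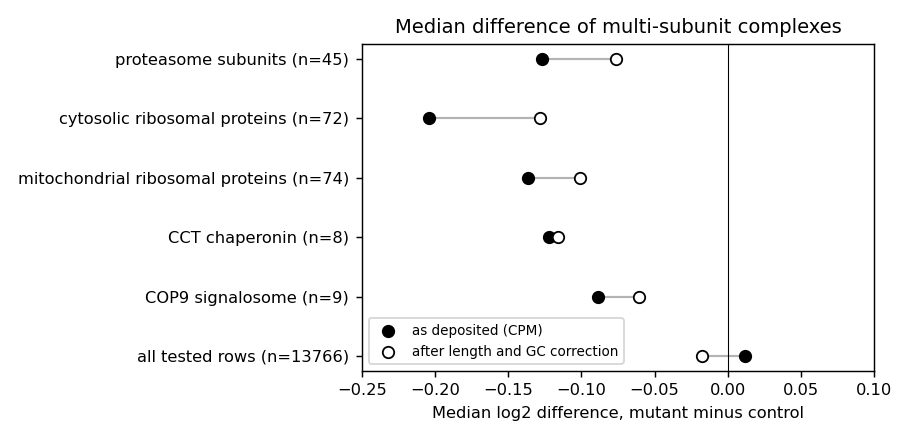
Median log2 difference, mutant minus control, of the proteasome rows and of 4 other multi-subunit complexes, and of all tested rows, before (filled) and after (open) the length and GC correction. All complexes have medians below 0 both ways, and the proteasome median moves from -0.13 to -0.08.

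Partner genes of the proteasome were not called. Among 11 rows for subunits and partners with other names, 8 had a negative difference, against 46.9% of all rows. The median of the 11 was -0.09, and 0 were called in either fit. Of all rows, limma called 0.196% lower and 0.363% higher with genotype alone, and 3.51% and 7.93% with the block. At those shares, 0 of 11 says little about these rows. The core chaperone gene Pomp stood at 158 ± 3.02 CPM in mutant and 171 ± 5.50 CPM in control kidneys (SD, n = 3), the ubiquitin receptor gene Adrm1 at 122 ± 12.5 CPM in mutant and 128 ± 19.3 CPM in control kidneys, and the deubiquitinase gene Uchl5 at 51.7 ± 4.80 CPM in mutant and 58.0 ± 2.92 CPM in control kidneys.

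Both genes called in the list of factors that drive subunit transcription, and of their targets, were higher in mutant kidneys. Of 12 rows in this list, 2 rose with the block, against 7.93% of all rows, and 0 with genotype alone. Nfe2l1 stood at 255 ± 11.6 CPM in mutant and 229 ± 10.4 CPM in control kidneys (SD, n = 3), higher in 3 of 3 litters, with a log2 difference of 0.16 and an adjusted p of 0.0362 by limma with the block. With the length and GC correction as well this was 0.06 and 0.318. Nfe2l2, its relative NRF2, stood at 80.4 ± 6.63 CPM in mutant and 67.2 ± 2.65 CPM in control kidneys, higher in 3 of 3 litters, with a difference of 0.25 and an adjusted p of 0.0196, and of 0.0243 with the correction as well. Nqo1, Hmox1, Gclm, Txnrd1 and Srxn1, which NRF2 is known to drive, had differences from -0.01 to 0.16 and did not pass.

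Markers of cell types and of the cell cycle also differed between the groups. For comparison, limma called 0.196% of all rows lower and 0.363% higher with genotype alone, and 3.51% lower and 7.93% higher with the block, and 46.9% of all rows were below 0. Of 6 nephron progenitor markers, 2 fell with genotype alone, Cited1 and Meox1, and 4 with the block, and their summed level was 155 to 174 CPM in mutant and 214 to 257 CPM in control libraries. Of 8 proliferation genes, 7 had a negative difference and 2, Cdk1 and Ccnb1, fell with the block. Their summed level was 1963 to 2399.8 CPM in mutant and 2113 to 2509.6 CPM in control libraries. All 4 stroma markers had a positive difference, with a median of 0.29. Of these, Pdgfra rose with genotype alone and Pdgfra and Foxd1 with the block. The summed level of the stroma markers was 1207 to 1332 CPM in mutant and 953 to 1120.2 CPM in control libraries, without overlap. Of 6 early nephron and tubule markers, 2 rose with the block, Lrp2 and Jag1, and of 4 ureteric bud markers 1 did, Ret. Of 4 podocyte markers, 1 fell with the block, Nphs1. Of 8 erythroid genes 0 were called in either fit, and the 2 thymus markers listed had no row. The part of these in the proteasome difference was not tested. Markers of kidney were present in both groups, with Pax8 at 110.0 ± 5.90 CPM in mutant and 97.2 ± 3.73 CPM in control kidneys and the podocyte gene Nphs1 at 35.9 ± 3.78 CPM in mutant and 43.0 ± 4.08 CPM in control kidneys.

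Outside the family, the rows whose values over the 6 libraries were most like the mean of the proteasome rows were Akr1a1, Timm8b, Pfdn6, Donson and Hax1, with Pearson correlations from 0.99 to 1.00 among 13721 rows. Akr1a1, an aldehyde reductase gene, stood at 599 CPM, 623 CPM and 575 CPM in mutant and 652, 676 and 651 CPM in control libraries. Its log2 difference was -0.14. Akr1a1 was chosen for its likeness to a mean that was lower in mutant libraries, so a negative difference was built into the choice. These correlations are a description over 6 libraries, which all rows share together with their scaling.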

How the data were processed

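RNA from 3 mutant and 3 control embryonic kidneys was extracted with Trizol and made into TruSeq libraries, per the labels' protocols. The authors deposited CPM values per row. The submitters' processing notes name the aligner TopHat2 (version 2.0.9), the tools SAMtools and Picard, and the genome build NCBIM37; the counting program, strand setting and annotation are not given in the sources used here. Multiplied by 1 total per library, the deposited CPM values gave whole reads (tolerance 0.001 reads), with totals of 46672915 to 54913325 in mutant and 43804667 to 49473404 in control libraries, so that 1 read was worth 0.0182 to 0.0228 CPM. The listed rows lack 0.105% to 0.117% of each total. Of the 13965 rows, 526 join several identifiers. Symbols, transcript lengths and GC content came from GENCODE M21 for 13695 rows (principal transcript).

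Rows reaching 1 CPM in 3 or more libraries, 13766 in all, were tested by limma (version 3.58.1, R 4.3.3). Values were log2(CPM + 0.5), the variance followed a trend on the mean, and p-values were Benjamini-Hochberg adjusted over all tested rows. Fold changes on this scale understate those of low rows. The model held genotype alone, and litter as a block was the alternative. The labels give the litters, and deviations of littermates from their group means correlated at 0.619, 0.446 and 0.312 across rows. Across the proteasome rows alone these correlations were 0.693, 0.375 and 0.041, so the pairing was weak there in litter 3. Mutant library 2 and control library 3, of different litters, correlated at 0.172 across all rows and 0.559 across the proteasome rows. The other pairs of different litters had negative correlations. The correction subtracted smooth functions of log2 length and GC content, fitted per library with mgcv 1.9.3. Replicates differed by more than sampling noise, with chi-square values of 21.6 to 51.1 for each degree of freedom. For a single value, 3 against 3 libraries allow no exact permutation p below 0.1. The members and gene lists were chosen with earlier results of these data known. Every library's value is given for members called under either design or with the correction, for the 5 largest differences in each direction (only 3 were above 0, so that Psmd2 and Psme1 are the next), and for the immunoproteasome subunits beside those they replace. The 5 rows outside the family with the highest correlation are named; Psma8, Psmc6 and the examples from the other lists were chosen after their values were seen. Results for 1 of the gene lists are not reported here.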

Additional observations from a re-analysis of the deposited data

How the results depend on the processing

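Counts of all rows called higher and all rows called lower were 50 and 27 with genotype alone. They were 1091 and 483 with the litter block, 87 and 72 with the length and GC correction, 422 and 380 with both, 927 and 562 with trimmed-mean scaling and the block, 908 and 593 with median-ratio scaling and the block, and 454 and 455 with length from the longest transcript, corrected and blocked, a setting chosen after seeing the data. A filter at 5 CPM gave 33 higher. Leaving out 1 library gave 7 to 67 higher and 13 to 33 lower. With the block they were 304 and 77 without litter 1, 951 and 452 without litter 2, and 1506 and 842 without litter 3.

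The proteasome rows called lower, 0 with genotype alone, were 9 with the litter block, 2 with correction and block, 3 with the longest transcript, 12 with trimmed-mean and 15 with median-ratio scaling and the block. With the block they were 0 without litter 1, 6 without litter 2 and 11 without litter 3. The median log2 difference of the proteasome rows, -0.127 as reported, was -0.0765 under the correction with and without the block and -0.0801 with the longest transcript. It ran from -0.140 to -0.0911 when 1 library was left out, lowest in size without mutant library 3, and was -0.102 without control library 2. The cause of these moves was not tested.

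Sign changes were found in 9 rows, none of them called in any setting. With the correction, with and without the block, Psma4 was 0.0105, Psmb10 0.0126, Psme1 0.0429, Psme2 0.0339 and Psme4 -0.117. With the longest transcript, Psma4 was 0.0109, Psmb10 0.0157, Psme2 0.0337 and Psme4 -0.108. Psme4 was -0.0110 with trimmed-mean and -0.0130 with median-ratio scaling, with and without the block. With the block and without litter 3, Psmb10 was 0.0960, Psmd2 0.0152, Psme1 0.00193 and Psme4 -0.0490. With genotype alone and 1 library left out, Psmb10 ran from -0.190 to 0.0227, Psmc4 from -0.128 to 0.00286, Psmd1 from -0.0793 to 0.00145, Psmd2 from -0.0313 to 0.0284, Psmd9 from -0.144 to 0.0399, Psme1 from -0.0878 to 0.0132 and Psme4 from -0.0641 to 0.0859. Fits with edgeR and DESeq2 were not run. The CPM values gave whole reads at 1 total per library, but too few low values remained for these recovered reads to be accepted as counts. The library totals and the reads printed for Psma8 and Psmb8 rest on this recovery. Depth limits Psmb8 and Psma8 most.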
